A study of Sus scrofa with 34 samples.

Results

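The comparison concerns ileum RNA from piglets that had received for 28 days either a basal control diet or the same diet with a phytogenic feed additive (PFA), a commercial blend of essential oils whose components include oregano and caraway oil, carvacrol, methyl salicylate and menthol. The 10 ileum libraries, 5 per diet, are those of the 34 libraries in the series that came from this tissue, and all 25880 genes in the count table were considered. Each diet was fed in a single pen, so that pen and diet cannot be told apart. Piglets of both sexes were used, and the labels do not give the sex of single pigs. The samples were small pieces of the middle ileum, and each library came from a different pig.

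The ileum is the last segment of the small intestine. Its enterocytes complete the digestion of peptides and sugars at the brush border, reclaim bile acids and take up vitamin B12, and its wall holds the lymphoid follicles known as Peyer's patches. Interferon-stimulated genes encode antiviral effectors, and NF-kB is a transcription factor that drives inflammatory mediators and its own inhibitor. Carvacrol, thymol and menthol are known to act on cation channels of the TRP family.

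The depth was 18772230 to 24338165 read pairs on genes in each library, and 14300 genes passed the filter on low counts. The tissue label was checked with FABP6, the ileal bile acid binding protein, which had 47754 to 198341 counts in the ileum libraries and at most 0.044 CPM (counts scaled to a library size of 1000000) in the liver libraries of the same pigs. SLC10A2, which carries bile acids into enterocytes, had 1401 to 4904 counts in the ileum and none in the liver. ALB, the albumin gene of hepatocytes, had at most 5 counts in an ileum library. Pigs are named C (control) or P (PFA) with the number in their library title, and values in CPM are given in the order C-71, C-80, C-92, C-100, C-110 and P-75, P-95, P-107, P-134, P-138. Control pig C-80 stood apart in B cell transcripts, as described below. Y-linked transcripts were counted in C-71 and C-110 among the control pigs and in P-75, P-134 and P-138 among the PFA pigs. The slope of expression on the GC content of genes was 0.26, 0.17, 0.03, 0.14 and -0.23 log2 units per 10% GC in the control pigs and -0.17, -0.06, -0.13, 0.37 and -0.37 in the PFA pigs, so that C-110 and P-134 differed in sign from the other pigs of their diet.

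No gene was called between the diets (0 of 14300, or 0%, with an adjusted p no higher than 0.05). The smallest adjusted p was 0.702, for PRR15, and every other gene described here had an adjusted p above 0.99 (Benjamini-Hochberg adjustment of edgeR's quasi-likelihood test), so that none of the differences given here passed the test. At an unadjusted p under 0.05, 181 genes (1.27%) were lower and 220 (1.54%) higher with PFA. The values of the PFA pigs lay entirely below those of the control pigs in 15 genes (0.105%) and entirely above them in 65 (0.455%). DESeq2's Wald test called 5 of 19454 genes (0.0257%), which were PRR15 (adjusted p 1.66e-05), ANPEP (0.00206), NOTUM and UCHL5 (both 0.040) and ENSSSCG00000038068 (0.048). limma voom with sample quality weights called none, with 1855 genes lower and 1291 higher at an unadjusted p under 0.05. A correction for GC content in the 11343 genes with a GC value (79.3% of those tested, too few for a check of the whole table) changed the split from 130 lower and 172 higher to 192 lower and 165 higher. Without P-134, 1451 genes were lower and 575 higher at an unadjusted p under 0.05, without C-110 these counts were 448 and 556, and no gene was called in either case.

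The fit gives limits to the size of differences. The median standard error of a log2 fold change was 0.19, with quartiles of 0.14 and 0.29. The 95% confidence interval, not adjusted for the number of genes, lay within a 2-fold change in either direction for 11743 genes (82.1%) and within a 1.5-fold change for 7531 genes (52.7%). The point estimates were at least 2-fold lower in 90 genes and at least 2-fold higher in 28. The median log2 fold change of all genes was 0.016, and 46.7% of the genes were lower with PFA.

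The 12 genes with a symbol that were lower at the smallest p include several proteins of the epithelial surface. ANPEP (ENSSSCG00000001849, chromosome 7, 55351081 to 55373856) encodes aminopeptidase N, which releases amino acids from peptides at the apical membrane. It was at 8221, 8028, 9449.9, 9501 and 8268 CPM in the control pigs and 6039, 6102, 5343, 6954 and 5634 CPM in the PFA pigs, and all PFA pigs lay below all control pigs. The log2 fold change was -0.53 (standard error 0.12). DPEP1 (ENSSSCG00000021971, chromosome 6, 361187 to 385757), a membrane dipeptidase, was at 190.4, 106, 135, 107 and 60.95 CPM in the control pigs and 27.3, 41.2, 91.4, 47.4 and 21.1 CPM in the PFA pigs. Its log2 fold change was -1.39 (standard error 0.38), and the diets overlapped because C-110 was below P-107. SLC5A9 (ENSSSCG00000003882, chromosome 6, 163429244 to 163568542), a sodium-coupled sugar transporter, was at 23.6, 21.7, 24.9, 24.9 and 19.2 CPM in the control pigs and 16.2, 13.9, 18.5, 18.3 and 13.97 CPM in the PFA pigs. The groups did not overlap, although P-107 and C-110 were less than 1 CPM apart. AMN (ENSSSCG00000002524, on an unplaced scaffold), the partner of cubilin in the uptake of vitamin B12, was at 15.4, 11.3, 14.9, 17.3 and 6.12 CPM in the control pigs and 5.28, 6.18, 7.41, 9.06 and 6.17 CPM in the PFA pigs, and C-110 was within the PFA group. SSTR1 (ENSSSCG00000001938, chromosome 7, 61890560 to 61900567), a receptor for somatostatin, was at 3.01, 2.67, 3.05, 4.57 and 2.20 CPM in the control pigs and 2.29, 1.51, 1.54, 1.56 and 1.73 CPM in the PFA pigs, again with C-110 among the PFA pigs.

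NFKBIA (ENSSSCG00000001952, chromosome 7, 64508119 to 64510754) encodes the inhibitor that holds NF-kB in the cytoplasm and is itself induced by NF-kB. Its level was 60.96, 75.8, 78.2, 57.6 and 58.5 CPM in the control pigs and 44.4, 41.9, 52.4, 42.3 and 35.2 CPM in the PFA pigs. Every PFA pig was below every control pig, and the log2 fold change was -0.61 (standard error 0.13). CCL20 (ENSSSCG00000016254, chromosome 15, 129172743 to 129176069), a chemokine made by the epithelium over lymphoid follicles that attracts B cells and dendritic cells, was at 53.6, 6.44, 9.83, 18.03 and 8.85 CPM in the control pigs and 4.93, 1.38, 6.26, 6.34 and 3.14 CPM in the PFA pigs. The groups did not overlap, but P-134 and C-80 were nearly level, and the log2 fold change, -2.13 (standard error 0.59) with all pigs, was -1.29 without C-71, the highest pig. NOTUM (ENSSSCG00000039013, chromosome 12, 1033814 to 1044412), which inactivates Wnt ligands by removing their lipid, was at 1.76, 1.75, 1.89, 2.04 and 0.858 CPM in the control pigs and 0.299, 0.475, 0.329, 0.865 and 0.523 CPM in the PFA pigs. The level of C-110 was just under that of P-134, the highest PFA pig. NOTUM passed the filter on low counts only through the control pigs.

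PRR15 (ENSSSCG00000016686, chromosome 18, 43181283 to 43184932), a proline-rich protein, had the smallest p and was at 35.3, 35.5, 31.1, 33.1 and 33.1 CPM in the control pigs and 18.6, 18.6, 24.03, 21.1 and 22.4 CPM in the PFA pigs. The groups were well apart, and leaving out each pig in turn kept the log2 fold change between -0.74 and -0.64. Corrected for GC content it was -0.56. That correction moved most named genes with a GC value toward 0, such as AMN from -0.93 to -0.41, PRRG2 from -0.65 to -0.34 and UCHL5 from 0.28 to 0.20. It moved CCL20, SSTR1, FAM180A and NCAN away from 0, and TRPA1 changed sign. USP2 (ENSSSCG00000015120, chromosome 9, 46563469 to 46590392), a deubiquitinating enzyme, was at 12.6, 11.4, 9.25, 9.88 and 16.7 CPM in the control pigs and 6.12, 8.86, 7.46, 5.15 and 6.75 CPM in the PFA pigs, without overlap. The remaining named genes with lower levels were JADE2, part of a histone acetyltransferase complex, at a log2 fold change of -0.47, PRRG2 at -0.65, the adaptor protein GRB7 at -0.63 and FAM180A at -0.88. All 4 were without overlap, but GRB7 and FAM180A were picked from genes without overlap, so that theirs was fixed by the choice. ENSSSCG00000040785 and ENSSSCG00000035583, which have no symbol, were at -0.79 and -0.85. ENSSSCG00000035583 passed the filter on low counts only through the control pigs.

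**Figure D1:**
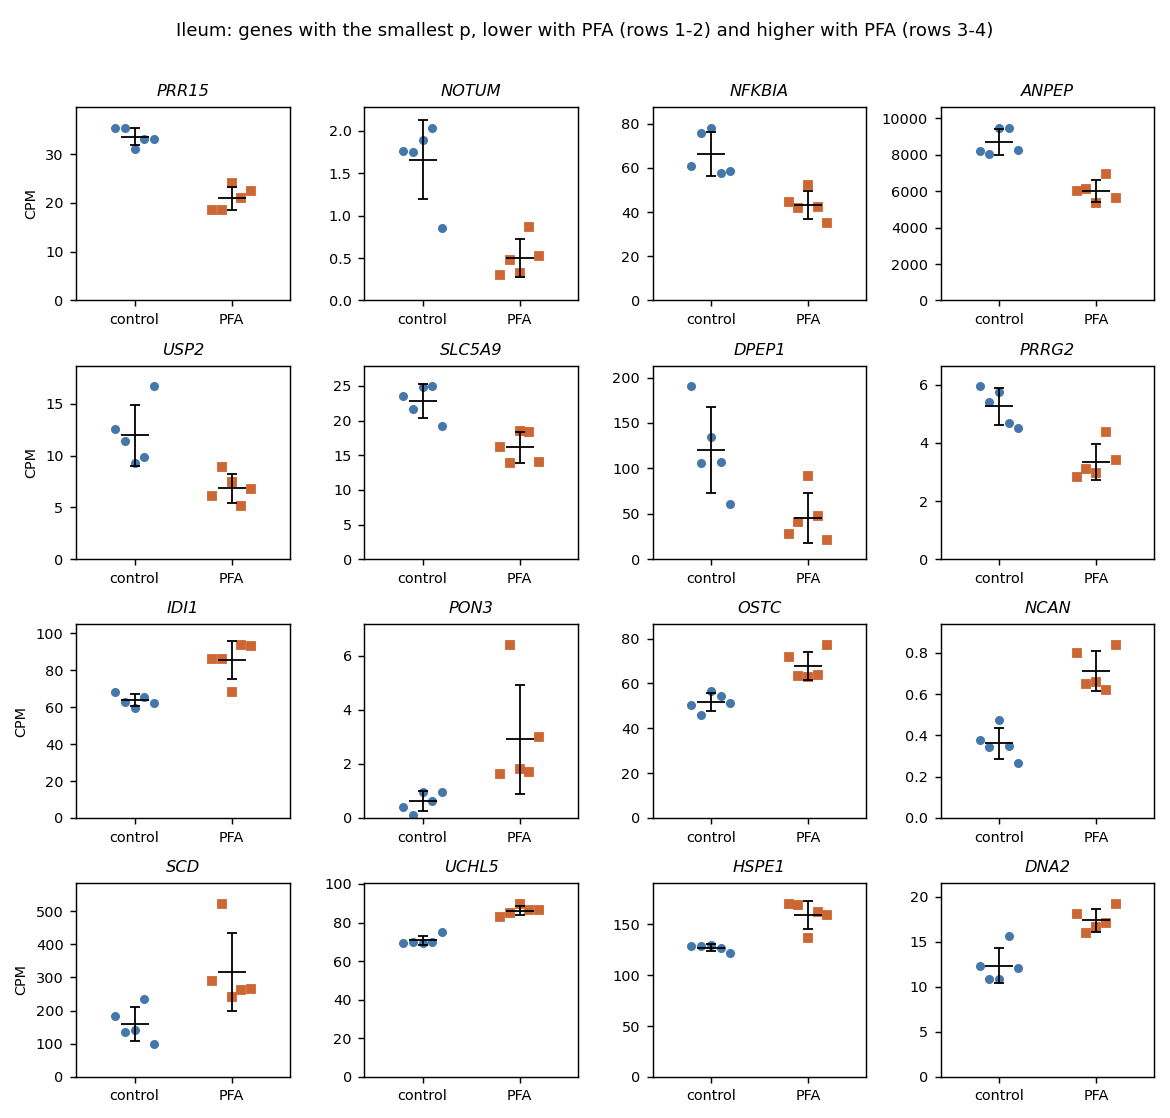
Level of the 8 named genes with the smallest p that were lower with PFA (upper 2 rows) and the 8 that were higher (lower 2 rows), in CPM on a linear axis from 0, with 1 point per pig, the mean of each diet (horizontal line) and the SD (bars, n = 5). PRR15, ANPEP and UCHL5 show separate groups, while for NOTUM and DPEP1 a control pig lies within the PFA pigs. NCAN and PON3 are also separate, but they passed the filter on low counts only through the PFA pigs.

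The genes that were higher with PFA included enzymes of lipid synthesis. SCD (ENSSSCG00000010554, chromosome 14, 111461560 to 111478033), the desaturase that makes oleic acid, was at 184, 136, 142, 234 and 97.4 CPM in the control pigs and 289, 522, 241, 263 and 265 CPM in the PFA pigs. The lowest PFA pig was only just above the highest control pig. P-95 was far above the other PFA pigs, and without it the log2 fold change was 0.72 in place of 0.99. Adipocyte transcripts were also highest in this pig, where the list summed to 319.8 CPM against 134.3 to 237 CPM in the other 9 pigs, and their part in the level of SCD was not tested. IDI1 (ENSSSCG00000029066), an enzyme of the isoprenoid branch of cholesterol synthesis, was at 68.2, 62.7, 59.5, 65.7 and 62.4 CPM in the control pigs and 85.8, 86.2, 67.98, 93.5 and 93.1 CPM in the PFA pigs. It overlapped between the diets through P-107 alone. SLC27A6, a fatty acid transport protein picked from genes without overlap, was at a log2 fold change of 0.58 (standard error 0.22).

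OSTC (ENSSSCG00000009145, chromosome 8, 113435983 to 113447196), a subunit of the complex that attaches sugars to new proteins in the endoplasmic reticulum, was at 50.4, 46.1, 56.6, 54.5 and 51.1 CPM in the control pigs and 71.9, 63.4, 63.1, 63.96 and 77.1 CPM in the PFA pigs. All PFA pigs were above all control pigs. DNAJC3 (ENSSSCG00000026082, chromosome 11, 65230145 to 65299084), a co-chaperone of the same compartment, was at 81.8, 71.6, 76.9, 88.3 and 78.3 CPM in the control pigs and 109, 98.5, 88.6, 101 and 99.5 CPM in the PFA pigs, and P-107 was nearly level with C-100. AGR2 (ENSSSCG00000015363, chromosome 9, 86042070 to 86053893), a disulfide isomerase that goblet cells need to fold mucin, was at 292, 270.1, 319.6, 376 and 326 CPM in the control pigs and 418, 429, 493, 344 and 507 CPM in the PFA pigs, and P-134 lay below C-100. HSPE1 (ENSSSCG00000016078, chromosome 15, 101374019 to 101376146), the small subunit of the mitochondrial chaperonin, was at 129, 129, 130.2, 127 and 122 CPM in the control pigs and 170.3, 169, 136.7, 162 and 159 CPM in the PFA pigs. The groups were apart, with P-107 the nearest to the controls. Without overlap were also UCHL5 (ENSSSCG00000010802, chromosome 10, 725688 to 761633), a deubiquitinase bound to the proteasome, at 69.5, 69.7, 69.4, 70.1 and 75.1 CPM in the control pigs and 83.1, 84.9, 89.7, 86.5 and 86.4 CPM in the PFA pigs, and the mitochondrial and cytosolic genes ATP5MK (log2 fold change 0.32), a subunit of ATP synthase, and MDH1 (0.35), cytosolic malate dehydrogenase.

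PON3 (ENSSSCG00000029515, chromosome 9, 74983040 to 75017947), a lactone-hydrolysing paraoxonase, had the largest fold change among the named genes with a symbol. It was at 0.418, 0.114, 0.946, 0.646 and 0.966 CPM in the control pigs and 1.64, 6.39, 1.81, 1.69 and 2.98 CPM in the PFA pigs. All PFA pigs were above all control pigs, and the log2 fold change, 2.26 (standard error 0.54) with all pigs, was 1.72 without P-95. C-71 and C-80 were under the level that the filter on low counts asks for. PON3 thus passed it only through the PFA pigs, which ties its separation to the filter. In the liver libraries of the same pigs PON3 was at 271 ± 92.98 CPM in the control pigs and 271 ± 184 in the PFA pigs (SD, n = 5 each). CX3CR1, the fractalkine receptor of intestinal macrophages, was at 1.63, 2.44, 2.997, 2.43 and 1.502 CPM in the control pigs and 5.23, 3.20, 3.07, 3.75 and 3.24 CPM in the PFA pigs, and P-107 was nearly level with C-92. DNA2, a nuclease and helicase, was without overlap at a log2 fold change of 0.49. NCAN, a proteoglycan of nervous tissue, was at 0.96, also without overlap. Its level was 0.268 to 0.473 CPM in the control pigs and 0.618 to 0.837 CPM in the PFA pigs. NCAN thus also passed the filter on low counts only through the PFA pigs, which ties its separation to the filter. TMEM185B was at 0.57 and, like CX3CR1, was picked from genes without overlap.

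ENSSSCG00000038068, which has no symbol or position, was near 0 in some pigs and abundant in others. It was at 0, 0.152, 1.42, 0.795 and 0.0537 CPM in the control pigs and 0.0996, 39.6, 49.4, 11.8 and 55.7 CPM in the PFA pigs. P-75 was as low as the control pigs. In the liver of the same animals the gene was at 0, 0, 0.268, 0.409 and 0.0277 CPM in the control pigs and 0.0688, 21.7, 28.9, 18.9 and 23.3 CPM in the PFA pigs, so that the same 4 pigs were high in both tissues. The other unnamed gene with a small p, ENSSSCG00000004392, had a log2 fold change of 0.43, and C-110 was level with P-134.

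**Figure D2:**
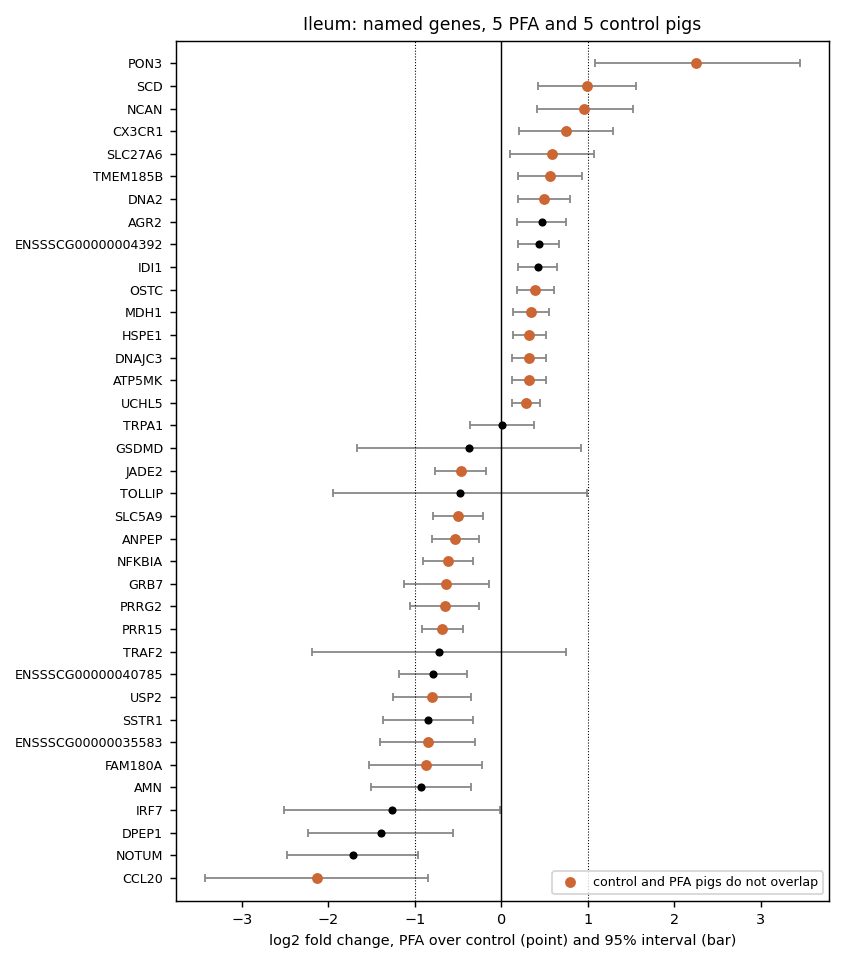
Log2 fold change, PFA over control, of the named genes (points) with 95% confidence intervals (bars), on a log2 axis with dotted lines at 2-fold; orange points mark genes whose control and PFA pigs do not overlap. ENSSSCG00000038068 is left out because its interval would stretch the axis. The widest intervals belong to CCL20, TRAF2, TOLLIP and GSDMD, and that of TRPA1 lies around 0.

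Interferon-stimulated genes were described as a list of 45 tested genes, and the list as a whole was not tested. Of these, 43 were lower with PFA and 2 higher, with a median log2 fold change of -0.26 against 0.016 for all genes. At an unadjusted p under 0.05, 3 were lower (USP18, DHX58 and ISG15) and none higher, and no member separated the groups. USP18, which removes the ISG15 tag from proteins, was at 52.6, 48.98, 27.8, 59.9 and 21.3 CPM in the control pigs and 31.6, 17.7, 21.5, 24.7 and 24.5 CPM in the PFA pigs. DHX58, a helicase that modulates viral RNA sensing, was at 40.3, 20.9, 17.7, 47.8 and 9.66 CPM in the control pigs and 17.7, 11.7, 14.5, 12.6 and 9.10 CPM in the PFA pigs. ISG15 itself (ENSSSCG00000040575, chromosome 6, 63363201 to 63364211), a ubiquitin-like protein secreted and attached to others, was at 59.7, 26.97, 15.8, 120.2 and 4.56 CPM in the control pigs and 22.5, 7.69, 13.4, 15.98 and 8.53 CPM in the PFA pigs. The 2 highest control pigs for these genes were C-71 and C-100, and C-110 was within or below the PFA range.

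Across the list the same pigs stood out. The mean log2 CPM of the 45 genes was 6.96, 6.46, 6.30, 7.35 and 6.03 in the control pigs and 6.58, 6.14, 6.37, 6.12 and 6.17 in the PFA pigs, and 3 control pigs were within or below the PFA range. Without C-100 the median log2 fold change was -0.086 with 35 of 45 genes lower, without C-71 it was -0.16 and without C-110 it was -0.40. In the 42 members with a GC value the median was -0.25, and -0.22 after GC correction. Among the antiviral effectors, OASL was at -1.36, RSAD2 at -0.95, MX2 at -0.81 and HERC5 at -0.79. Of the factors that induce such genes, IRF7 (described below) was at -1.26, STAT2 at -0.07, IRF9 at -0.12 and IRF1 at -0.01. The inducible proteasome subunits PSMB8 and PSMB9 were at 0.03 and -0.02.

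**Figure D3:**
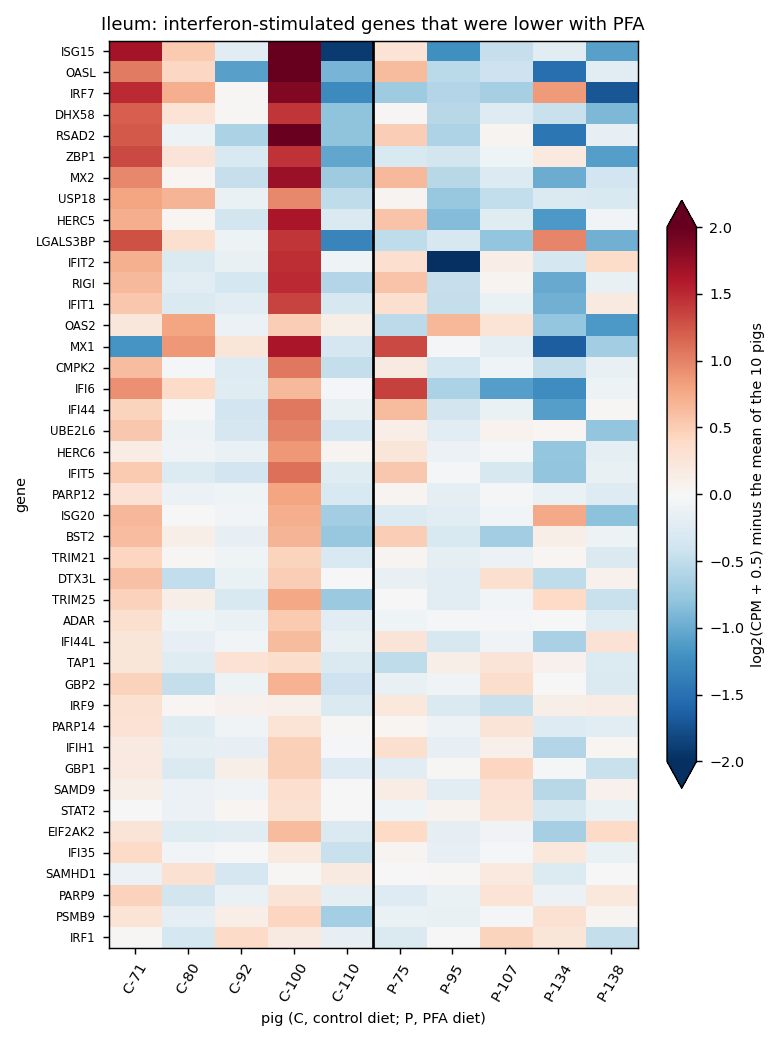
Each row is 1 of the 43 interferon-stimulated genes that were lower with PFA and each column a pig, with color giving log2(CPM + 0.5) minus the mean of the gene over the 10 pigs; genes are ordered by fold change and the line divides control (left) from PFA (right). Columns C-71 and C-100 are red through most of the upper rows, and the PFA columns and C-110 are mostly blue, with the lower rows near white.

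Promoters of the list were searched for the interferon-stimulated response element, taken as GAAA, any 2 bases and GAAA on either strand, in the 250 bases before to 50 bases after the gene start on Sscrofa11.1. It occurred in 19 of the 42 members with a promoter (45.2%) and in 340 of 11343 promoters of tested genes (2.997%). With all pigs, all 19 members with the element were lower with PFA, at a median log2 fold change of -0.48, and so were 21 of the 23 without it, at -0.19. This split was not repeated with single pigs left out, and without C-100 the median of the whole list was -0.086. Over all promoters holding the element the median was 0.014. The 250 bases before the start of ISG15, a member that holds the element there, are shown 5′ to 3′ as the RefSeq genome gives them, with the matches in capitals. The 3 matches start 134, 128 and 108 bases before the gene start, and the first pair overlaps.
ISG15 (chr6:63362951-63363200, plus strand): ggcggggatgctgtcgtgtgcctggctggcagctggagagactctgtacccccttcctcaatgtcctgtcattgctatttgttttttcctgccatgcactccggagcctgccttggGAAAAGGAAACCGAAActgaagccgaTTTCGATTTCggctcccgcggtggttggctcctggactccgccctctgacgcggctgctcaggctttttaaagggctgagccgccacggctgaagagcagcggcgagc

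NF-kB components and targets were lower in 26 of 36 (median -0.12), with NFKBIA and RELB, a subunit of the alternative pathway, at an unadjusted p under 0.05. RELB was at 22.8, 21.6, 10.2, 13.8 and 6.60 CPM in the control pigs and 8.41, 8.68, 6.75, 12.8 and 5.13 CPM in the PFA pigs, and P-134 was above C-92 and C-110. NFKB2, the partner of RELB, was at a log2 fold change of -0.51. RELA and NFKB1, the subunits of the classical dimer, were at -0.03 and 0.01, and the receptor TNFRSF1A was at -0.01. Without P-138 the median of the list was -0.027, and without C-80 it was -0.055.

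CCL20, IRF7, TRAF2, TOLLIP and GSDMD were chosen for quantitative PCR from these same samples, so that their direction is not independent evidence. IRF7, which switches on interferon genes, was at 53.4, 31.4, 18.98, 68.8 and 7.46 CPM in the control pigs and 11.2, 12.3, 11.7, 34.4 and 5.39 CPM in the PFA pigs. TRAF2, an adaptor of TNF receptors, was at 18.4, 15.6, 5.73, 12.9 and 2.58 CPM in the control pigs and 3.88, 4.67, 3.24, 20.1 and 1.57 CPM in the PFA pigs. TOLLIP, a brake on Toll-like receptor signaling, was at 8.08, 4.80, 2.26, 4.12 and 1.502 CPM in the control pigs and 0.946, 1.51, 1.37, 9.68 and 1.36 CPM in the PFA pigs, and GSDMD, the pore-forming protein of pyroptosis, at 48.9, 27.2, 24.7, 37.6 and 7.89 CPM in the control pigs and 11.3, 13.3, 10.8, 66.5 and 10.7 CPM in the PFA pigs. In all 4, C-110 was the lowest control pig and P-134 the highest PFA pig, as they were for the GC slope of their diets. Corrected for GC content, the log2 fold changes were -0.92 for IRF7, -0.53 for TRAF2, -0.36 for TOLLIP and -0.25 for GSDMD. Without P-134 their log2 fold changes were -1.83, -1.72, -1.68 and -1.34, against -1.26, -0.72, -0.47 and -0.37 with it. Of the 31 genes of innate sensing and pyroptosis tested, 20 were lower and 11 higher (median -0.048, which ranged from -0.14 without C-92 to 0.0012 without C-80), and the 2 with an unadjusted p under 0.05 were higher, namely the RNA receptor TLR8 at 0.53 (standard error 0.22) and the inflammasome protease CASP1 at 0.36 (standard error 0.16).

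Chemokines had no common direction, with 9 of 21 lower and a median of 0.010, which ranged from -0.034 to 0.097 when each pig was left out. CXCL9, a ligand of T cells, was at 86.9, 67.03, 69.9, 101.8 and 69.3 CPM in the control pigs and 70.6, 61.8, 63.7, 50.5 and 61.8 CPM in the PFA pigs, and PPBP, a platelet chemokine, at a log2 fold change of -0.66 (standard error 0.29). These 2 and CCL20 had an unadjusted p under 0.05. Cytokines and alarmins (17 tested, median 0.053, and -0.0074 without C-71) had none.

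B cell and germinal centre genes showed the largest difference of any list, and it rested on 1 pig. All 16 tested members were lower with PFA, at a median log2 fold change of -1.52. MS4A1, which encodes the B cell surface protein CD20, was at 1.21, 126.3, 1.16, 1.29 and 1.18 CPM in the control pigs and 0.697, 1.30, 2.30, 1.40 and 0.785 CPM in the PFA pigs. C-80 was far above all other pigs. The summed level of the list was 986 CPM in C-80, 155 to 174 CPM in the other control pigs and 145 to 175 CPM in the PFA pigs. Without C-80, 9 members lay below 0 and 7 above it, and the median was -0.070. In pieces of tissue more cells of a type and more RNA per cell cannot be told apart. CCL20 was lowest in C-80 among the control pigs, and its relation to the B cell transcripts was not tested.

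Enterocyte genes were lower in 10 of 13 (median -0.27), brush border hydrolases in 8 of 14 (median -0.14), nutrient transporters in 16 of 21 (median -0.13) and genes of bile acid recovery in 9 of 12 (median -0.23). The median of the enterocyte genes lay between -0.35 and -0.22 in all 20 alternatives. That of the hydrolases was -0.039 without P-75, -0.055 without P-134, -0.064 without C-100 and -0.087 without C-92, that of the transporters -0.081 without P-134 and -0.19 without P-138, and that of bile acid recovery -0.11 without C-100 and -0.13 without P-75. Smooth muscle genes were higher in 12 of 15 (median 0.24), and their summed level was 3124 to 13038 CPM in the control pigs and 5439 to 14539 CPM in the PFA pigs. The summed enterocyte level was 15494 CPM in C-110 and 18513 to 27957 CPM in the other control pigs, against 14620 to 21169 CPM in the PFA pigs. C-110 was the control pig with the most smooth muscle and the least enterocyte RNA, and the part of the tissue makeup in these differences was not tested. The members of these lists that were lower at an unadjusted p under 0.05 were FABP6, CDHR5, which links microvilli, and APOA1 among the enterocyte genes, ANPEP, NAALADL1 and ENPP7, the intestinal sphingomyelinase, among the hydrolases, and the nucleoside transporter SLC28A1, with the iron transporter SLC11A2 higher. FABP6 (ENSSSCG00000017037, chromosome 16, 63297594 to 63303675) was at 5646, 6818, 7304, 9851 and 2567 CPM in the control pigs and 4503, 3024, 3553, 1967 and 5568 CPM in the PFA pigs. The highest 4 pigs were controls, but C-110 was below 4 PFA pigs. The bile acid exporter subunit SLC51A was at a log2 fold change of -0.37, FGF19, the hormone that bile acids induce in the ileum, at -0.82 (standard error 0.87), and the bile acid receptor NR1H4 at 0.20. The sucrase SI was at -0.18 (standard error 0.21), the peptidase DPP4 at 0.03 (standard error 0.16), the peptide transporter SLC15A1 at -0.02 (standard error 0.18) and the glucose transporter SLC5A1 at -0.27 (standard error 0.16), all smaller in size than that of ANPEP.

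Goblet cell genes were lower in 8 of 10 (median -0.18, -0.087 without C-71 and -0.30 without P-134). At an unadjusted p under 0.05, ST6GALNAC1 was lower, at -0.43 (standard error 0.18), and AGR2 was higher. MUC2 was at -0.38 (standard error 0.37). Of the antimicrobial proteins 6 of 10 were lower (median -0.15, and -0.024 without C-110, -0.072 without P-75 and -0.089 without C-71). Lysozyme, LYZ, varied widely between pigs, at 1073, 1348, 1001, 362 and 2691 CPM in the control pigs and 90.5, 1553, 129, 1276 and 303 CPM in the PFA pigs. Its range within each diet was larger than the difference between diets. Crypt and Wnt feedback genes had no common direction (12 of 25 lower, median 0.034), with the stem cell marker LGR5 at 0.25 (standard error 0.21) and the Wnt target AXIN2 at 0.12 (standard error 0.22), beside NOTUM. Cell cycle genes were higher in 16 of 25 (median 0.062), tight junction genes in 10 of 17 (median 0.040) and T cell genes in 12 of 19 (median 0.048), with no member of these 3 lists at an unadjusted p under 0.05. The medians of these 3 lists and of the crypt genes changed sign in 2 to 6 of 20 alternative settings.

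Genes of the endoplasmic reticulum stress response were higher in 19 of 23 (median 0.16). At an unadjusted p under 0.05, 4 were higher and none lower, all of them chaperones or folding factors, namely DNAJC3, HSPA5, MANF and HSP90B1. HSPA5 (ENSSSCG00000005601, chromosome 1, 265930044 to 265934959), the main chaperone of the compartment, was at 609.6, 622, 547, 669 and 556 CPM in the control pigs and 1101, 825, 603, 811 and 748 CPM in the PFA pigs, and P-107 was within the control range. MANF was at 59.1, 54.4, 51.6, 60.1 and 47.4 CPM in the control pigs and 92.8, 67.3, 52.7, 82.2 and 67.7 CPM in the PFA pigs, with the same pig lowest among the PFA pigs. The lectin chaperone CANX was at a log2 fold change of 0.29 (standard error 0.13) and the transcription factor XBP1 at 0.23 (standard error 0.11), whereas ATF3, TRIB3 and ERN1 were at -0.34, -0.05 and -0.10. The median lay between 0.11 and 0.20 in all 20 alternatives, including GC correction and leaving out each pig.

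The endoplasmic reticulum stress element, taken as CCAAT, any 9 bases and CCACG on either strand, was found in the promoters of 7 of the 23 genes (30.4%) and of 12 of 11343 tested genes (0.106%). The 7 were HSPA5, HSP90B1, CANX, XBP1, CALR, PDIA6 and CRELD2, all higher with PFA, at a median of 0.23 against 0.13 for the 16 without it. This split was not repeated with single pigs left out. Over all 12 promoters holding the element the median was 0.15. The sequences before the starts of HSP90B1 and CANX are shown, with the element in capitals, since they hold it fully upstream of the start.
HSP90B1 (chr5:80531017-80531266, minus strand): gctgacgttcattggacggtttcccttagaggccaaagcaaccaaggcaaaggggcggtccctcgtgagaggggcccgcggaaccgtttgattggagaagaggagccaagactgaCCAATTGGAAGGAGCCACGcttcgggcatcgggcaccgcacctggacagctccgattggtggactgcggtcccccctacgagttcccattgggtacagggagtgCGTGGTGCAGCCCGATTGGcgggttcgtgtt
CANX (chr2:78915829-78916078, minus strand): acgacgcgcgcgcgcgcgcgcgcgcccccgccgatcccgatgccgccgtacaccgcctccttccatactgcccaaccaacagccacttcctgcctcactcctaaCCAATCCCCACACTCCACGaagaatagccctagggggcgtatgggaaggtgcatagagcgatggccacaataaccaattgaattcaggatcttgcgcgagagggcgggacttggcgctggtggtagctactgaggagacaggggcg

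The list of heat shock and immediate early genes was lower in 19 of 25 (median -0.25), and the median was -0.035 with 14 of 25 lower without P-138, -0.14 without P-75 or C-71 and -0.16 without C-100. At an unadjusted p under 0.05 the heat shock proteins HSPA8 and HSPH1 were higher and the transcription factor EGR1 was lower. HSPA8 was without overlap at 1404, 1473, 1272, 1512 and 1503 CPM in the control pigs and 2314, 1820.2, 1632, 1845 and 1552 CPM in the PFA pigs. HSPH1 was at a log2 fold change of 0.36 (standard error 0.15) and EGR1 at -0.52 (standard error 0.23).

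Cholesterol synthesis and uptake genes were higher in 20 of 28 (median 0.18, and 0.12 without C-92), with IDI1, NSDHL, HMGCS1 and EBP at an unadjusted p under 0.05. HMGCS1 (ENSSSCG00000016872, chromosome 16, 27936225 to 27957261), which makes the precursor of mevalonate, was at 211, 224, 249.6, 321 and 271 CPM in the control pigs and 319.7, 382, 291, 273 and 388 CPM in the PFA pigs, and C-100 was above P-75, P-107 and P-134. SQLE, which oxidizes squalene, was at 0.28 (standard error 0.16). The exporter ABCA1 was at -0.55 (standard error 0.30) and the regulator SREBF2 at -0.13 (standard error 0.22). The sterol regulatory element, taken as TCAC, any 1 base and CCAC on either strand, was found in 4 of the 25 promoters of the list (16%) and in 114 of 11343 (1.01%). That of HMGCS1 is shown with the element in capitals.
HMGCS1 (chr16:27957262-27957511, minus strand): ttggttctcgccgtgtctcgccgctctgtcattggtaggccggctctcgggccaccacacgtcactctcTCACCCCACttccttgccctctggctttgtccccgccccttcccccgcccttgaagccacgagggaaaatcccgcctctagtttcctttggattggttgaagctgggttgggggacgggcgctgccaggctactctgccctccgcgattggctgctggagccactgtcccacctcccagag

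Subunits of the respiratory chain were higher in 41 of 57 (median 0.10) and those of the proteasome in 26 of 31 (median 0.11, 0.068 without P-75 and 0.062 after GC correction). Of the first, 8 were higher and none lower at an unadjusted p under 0.05, with COX5A at 0.29 (standard error 0.10) and NDUFS1 at 0.25 (standard error 0.09). Of the second only PSMD12 was, at 0.24 (standard error 0.10). The effects were small, and the interval lay within a 2-fold change for 55 of 57 and 31 of 31 genes. Without C-110, whose mean level of the respiratory chain list was the lowest (5.57 log2 CPM, against 5.94 to 6.31 in the other pigs), the median of that list was 0.043 and 25 of 57 genes were lower, and without C-71 it was 0.16.

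**Figure D4:**
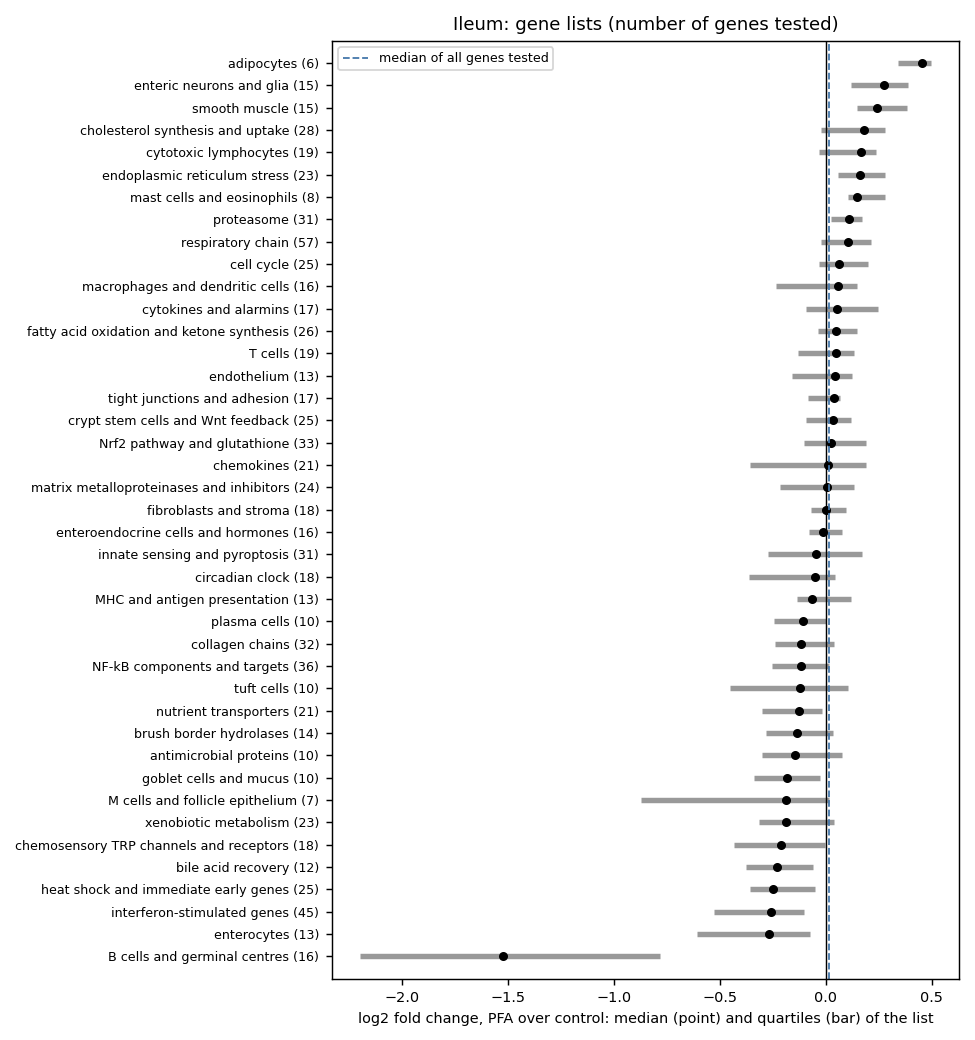
Median log2 fold change (points) and quartiles (bars) of each gene list with at least 5 genes tested, with the number tested in brackets; the dashed line is the median of all genes tested. B cell genes are farthest to the left (-1.52), followed by enterocyte and interferon-stimulated genes near -0.26, and the adipocyte, neuronal and smooth muscle lists are farthest to the right.

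Of the channels named above as targets of essential oil components, TRPA1 passed the filter. It was at 8.70, 12.8, 10.3, 13.01 and 8.75 CPM in the control pigs and 12.1, 11.06, 9.71, 9.18 and 11.7 CPM in the PFA pigs, with a difference of 0.01 (standard error 0.17) on the log2 scale and a 95% interval within a 2-fold change. TRPM8 had at most 3 counts per library, TRPV1 at most 4 and TRPV3 at most 16, and these 3 did not pass the filter, so that a difference was not detectable at this depth. Of 18 channels and taste or fatty acid receptors tested, 13 were lower (median -0.21, -0.077 without C-80 and -0.35 without P-134), none at an unadjusted p under 0.05. Xenobiotic metabolism genes were lower in 15 of 23 (median -0.19, and -0.023 without P-75, -0.052 without C-71, -0.083 without C-100 and -0.11 without P-107). SULT1E1, an estrogen sulfotransferase, was the only one at an unadjusted p under 0.05, at 3.85, 14.4, 17.5, 1.59 and 72.7 CPM in the control pigs and 3.43, 3.76, 8.395, 1.73 and 5.23 CPM in the PFA pigs, and C-110 was far above all other pigs. Nrf2 targets and glutathione genes were at a median of 0.023, which ranged from 0.0022 to 0.067 when each pig was left out, with FTL, the ferritin light chain, at -0.40 (standard error 0.13), SQSTM1 at -0.24 (standard error 0.10) and ME1 at 1.14 (standard error 0.49). The level of ME1 was 5.48, 26.7, 5.27, 4.20 and 5.44 CPM in the PFA pigs, and P-95 alone was high.

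**Figure D5:**
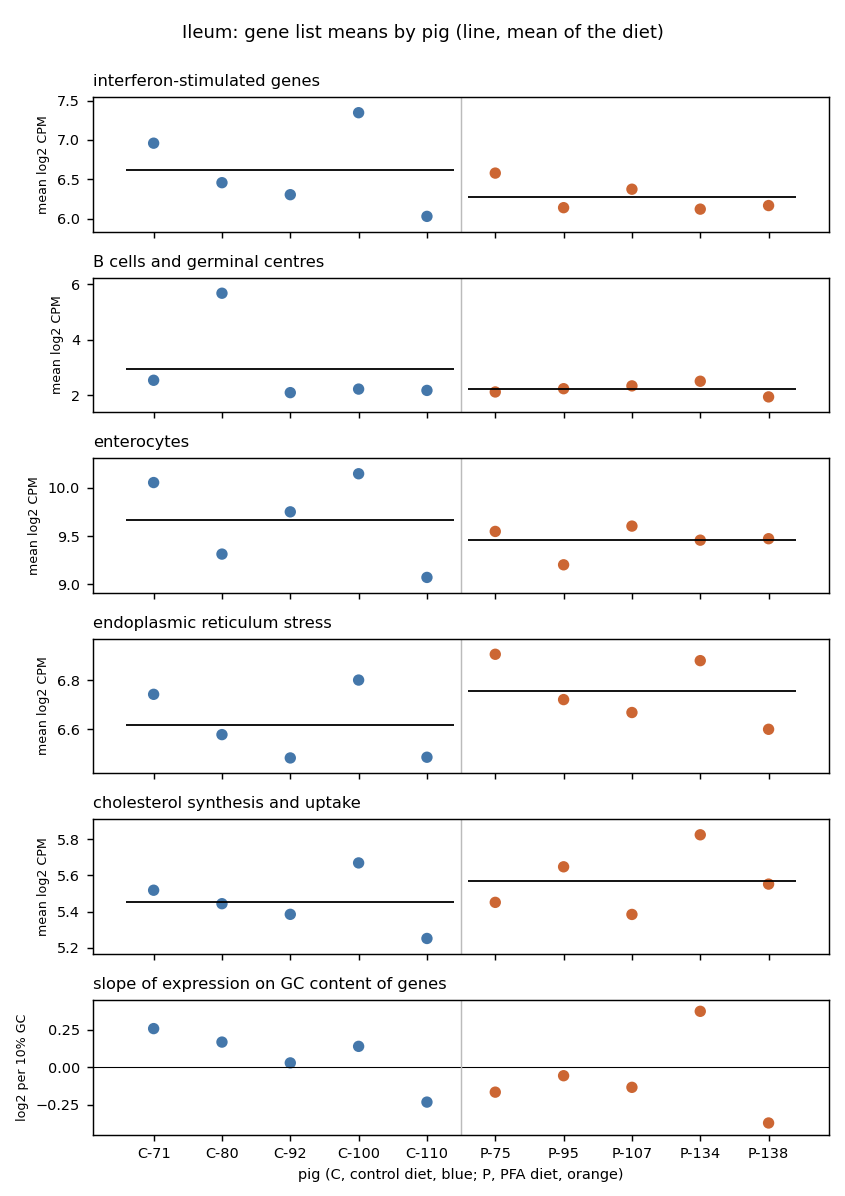
Mean log2 CPM of 5 gene lists in each pig, and in the lowest panel the slope of expression on the GC content of genes in log2 units per 10% GC; lines give the mean of the diet. Each of the 5 lists overlaps between control (left) and PFA (right), the B cell list is high in C-80 alone, and the GC slopes of C-110 and P-134 have the opposite sign to the rest of their diet.

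In the liver of the same pigs several of the named genes were also measured. NFKBIA was at 53.2 ± 10.5 CPM in the control pigs and 39.2 ± 8.33 in the PFA pigs there, ANPEP at 489 ± 82.7 CPM in the control pigs and 412 ± 91.6 in the PFA pigs and SCD at 1603 ± 547 CPM in the control pigs and 1350.3 ± 537 in the PFA pigs (SD, n = 5 each). In these 3 genes the diets overlapped in the liver, and the effect of PFA was not compared between the tissues by a test. CCL20 was at no more than 0.076 CPM in any of these liver libraries, and DPEP1 at no more than 0.19 CPM.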

How the data were processed

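Poly(A) RNA libraries of ileum tissue from 5 control and 5 PFA pigs were used, and 10 liver libraries of the same pigs served for levels only. The authors aligned the reads to Sscrofa11.1 with STAR 2.6.1d and deposited whole-number HTSeq counts per Ensembl gene; the annotation release and the strand option are not given in the sources used here. The deposited ileum table matched the single-library files in every gene. Replicates were different pigs. Genes were kept with filterByExpr and tested two-sided with edgeR 4.0.16 (quasi-likelihood, TMM scaling, Benjamini-Hochberg), without covariates. CPM are TMM-scaled in the ileum and, separately, in the liver, and log2 CPM values used a prior count of 2. Of the tested genes 11343 had a GC value. Alternatives were DESeq2 1.42.0, limma 3.58.1 (voom with sample quality weights), other scalings and filters, GC correction (lowess span 0.5), Y-linked and B cell covariates and leaving out each pig. The percent of genes within a 2-fold change was added to some of these after the data were seen. Named genes were the 12 with a symbol lower and the 12 higher with the smallest p, up to 2 without a symbol in each direction, the 6 with the largest fold change without overlap, the 3 list members with the smallest p, the genes of the quantitative PCR and TRP channels; further list members, among them RELA, SI and LYZ, are given for their role and were chosen after their values were seen. The members and the gene lists were chosen with earlier results of these data known. Some list members are not reported here by name. The scripts were tested on simulated counts.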

Additional observations from a re-analysis of the deposited data

Results flagged for a closer look

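In 10 of 162 groups of 5 pigs, 1 pig stood apart from the other 4 by more than 0.71 of the range of its group on the log2 scale, and chance gives this in about 1 group in 20. Among the control pigs, C-110 was apart from the others at 0.858 CPM for NOTUM, an inhibitor of Wnt ligands, and at 75.1 CPM for the deubiquitinase UCHL5. C-80 was apart for the B cell and germinal centre genes, with a mean of 5.67 log2 CPM. Among the PFA pigs, P-107 was low for IDI1 at 68.0 CPM and P-75 was low for ENSSSCG00000038068 at 0.0996 CPM. P-95 was high for the desaturase SCD at 522 CPM and for the adipocyte genes, with a mean of 4.97 log2 CPM. P-134 was high for TOLLIP at 9.68 CPM, for GSDMD at 66.5 CPM and for the tight junction genes, with a mean of 6.37 log2 CPM.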

How the results depend on the processing

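No paired analysis was possible because the control and PFA pigs were different animals. No gene was called under any of the 19 alternatives other than DESeq2, which called 5. At an unadjusted p under 0.05, limma voom gave 1855 genes lower and 1291 higher and the Y-linked covariate 120 and 139, and with every gene counted at least once 307 were lower and 24 lay entirely below the controls. Leaving out 1 pig gave 124 to 1451 genes lower, 127 to 575 higher, 25 to 163 entirely below and 72 to 273 entirely above, where fewer pigs overlap by construction. The highest of all 4 counts came without P-134, and the lowest counts of higher genes without C-92 (127), P-95 (135) and P-138 (146). TRPA1 was at 0.007 and turned negative with DESeq2 (-0.00016), RLE scaling (-0.00038), library totals (-0.014) and GC correction (-0.10), and ranged from -0.059 to 0.087 without 1 pig. GC values covered 79.3% of the tested genes, so that the GC check is void for the whole table and was made in the covered genes; it is also void for the respiratory chain (64.9% covered) and xenobiotic (73.9%) lists. With the B cell list as covariate the median of the B cell genes was -0.013. The cause of these shifts was not tested. Intervals cover the spread between these pigs only.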

Other observations

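Genes of the muscle layer and of the enteric nervous system were higher in more members than they were lower. Smooth muscle genes were higher in 12 of 15 (median log2 fold change 0.24) and genes of enteric neurons and glia in 13 of 15 (median 0.27), with no member at an unadjusted p under 0.05. Without P-95 the median of the neuronal list was 0.14, without C-80 it was 0.15 and without C-100 it was 0.18. ACTG2, the actin of visceral smooth muscle, was at 1037, 335, 1522, 677 and 1436 CPM in the control pigs and 2448, 2420.0, 1164, 1380 and 752 CPM in the PFA pigs. The smooth muscle list summed to 3124 CPM in C-80, the lowest of all pigs, and its median ranged from 0.022 without C-80 to 0.50 without C-110. All 6 tested adipocyte genes were higher (median 0.45), but P-95 alone held FABP4, a fatty acid binding protein of adipocytes, at 20.3 CPM against at most 3.33 CPM in any other pig, and without P-95 the median was 0.019.

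Among immune cells, cytotoxic lymphocyte genes were higher in 13 of 19 (median 0.17, and -0.034 without P-138), macrophage and dendritic cell genes in 9 of 16 (0.059, and -0.018 without C-110), and mast cell and eosinophil genes in 7 of 8 (0.15, and 0.052 without P-75). Plasma cell genes were lower in 7 of 10 (-0.11, and 0.025 without C-71) and genes of antigen presentation in 8 of 13 (-0.066, and 0.077 without C-80). M cell and follicle epithelium genes were lower in 5 of 7 (-0.19, which ranged from -0.56 without P-134 to -0.0032 without P-138). Neutrophil genes were lower in 3 of 3 (-0.31, which ranged from -0.53 without P-75 to -0.215 without P-138). Of the 15 neutrophil genes listed only these 3 were tested, and their summed level was low, at 3.1 to 9.0 CPM. SPIB, a transcription factor of B cells and M cells, was at 89.3 CPM in C-80 and at most 25.3 CPM in any other pig. Red blood cell genes were lower in 2 of 2, with HBB, the beta globin, at -0.55 (standard error 0.24).

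Tuft cell genes were lower in 6 of 10 (median -0.12, and -0.063 without C-71), with POU2F3, their lineage factor, at 5.48 CPM in C-80 and at most 1.21 CPM elsewhere. Enteroendocrine genes were lower in 8 of 16 (-0.013), fibroblast genes in 9 of 18 (-0.0015) and endothelial genes in 6 of 13 (0.045), and each of these 3 medians took both signs when single pigs were left out. Collagen chains were lower in 21 of 32 (-0.12), but the median was 0.018 with 15 of 32 lower without C-110, 0.016 by limma voom and -0.014 without P-138, with COL4A4 and COL17A1 at an unadjusted p under 0.05, and matrix metalloproteinases and their inhibitors in 11 of 24 (0.0046, and from -0.080 to 0.065 without 1 pig). Fatty acid oxidation genes were higher in 18 of 26 (0.049, and 0.0015 without C-80), whereas ANGPTL4, an inhibitor of lipoprotein lipase, was at 32.4, 37.4, 20.3, 35.5 and 26.9 CPM in the control pigs and 26.04, 11.97, 11.7, 25.5 and 14.2 CPM in the PFA pigs. Of the circadian clock genes 9 of 18 were lower (-0.052, and 0.0029 without C-71), with the repressor CRY1 at 0.31 (standard error 0.13) and the repressor NR1D1 at -0.97 (standard error 0.46).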
